A study of Mus musculus with 9 samples.

Results

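The 45 genes described here encode the machinery that copies DNA and divides the cell. They were chosen by symbol, as a list: 13 replication genes (Mcm2 to Mcm7, Pcna, Rrm1, Rrm2, Tyms, Gins2, Cdc45 and Cdc6), 25 genes of mitosis and cytokinesis (Mki67, Top2a, Ube2c, Cdc20, Ccna2, Ccnb1, Ccnb2, Cdk1, Aurka, Aurkb, Plk1, Bub1, Bub1b, Birc5, Cenpa, Cenpe, Cenpf, Tpx2, Nusap1, Kif11, Kif20a, Kif23, Prc1, Ect2 and Anln), and 7 other genes of cycling cells (Ccne1, Ccne2, Tk1, Stmn1, Hmgb2, Smc2 and Smc4). All 45 were among the 23420 symbols of the deposited table, and all 45 passed the filter on low values that left 10868 genes to test. RNA was sequenced from Mac1+ bone marrow cells of C57BL/6 mice in 9 libraries of 100 sorted cells each. Mac1 is the myeloid surface integrin encoded in part by Itgam.

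Every group carried the floxed alleles Ezh2 fl/fl and Runx1 fl/fl. WT (n = 3) had no further allele, so these controls are floxed mice without Cre. ITD (n = 2) had Flt3 ITD/+ in addition, an allele of the cytokine receptor Flt3 with an internal tandem duplication, and no Cre. DKOITD (n = 4) had both Flt3 ITD/+ and Rag1Cre+. Rag1 is a gene of lymphoid progenitors, and the labels do not say in what share of the sorted myeloid cells Ezh2 and Runx1 were deleted. Ages were not stated. Nothing in the labels says that libraries of a group came from separate mice, so each p-value reflects only how far these libraries lay apart, which may be technical.

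Cells license replication origins by loading the ring-shaped Mcm2 to Mcm7 helicase with the help of Cdc6, and Cdc45 and the GINS complex turn the helicase on at the start of S phase. Pcna is the sliding clamp of the DNA polymerases, while Rrm1, Rrm2 and Tyms supply deoxynucleotides. The mitotic genes are transcribed later, mostly in G2 and M phase. In bone marrow, myeloblasts and promyelocytes divide, whereas mature granulocytes have left the cycle.

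Values are RPKM as the authors deposited them, that is, reads scaled to gene length and to a divisor for each library. Levels of different genes can therefore be set side by side per length. The divisor was 0.703 to 0.919 times the recovered reads in WT and ITD and 1.13 to 1.44 times in DKOITD, so the scaling differed between groups. Reads recovered from the steps between the values came to 14770406 to 23124435 in WT, 5108022 and 13744891 in ITD, and 2825728 to 13301867 in DKOITD. The 45 genes together took 0.351% to 0.666% of them in WT, 0.364% and 0.540% in ITD and 0.364% to 0.640% in DKOITD. The median member had 171 to 1524 reads in a library. WT 2 stood apart from the other libraries, with a median correlation of 0.759 over genes against 0.815 to 0.881, and it listed 3 members at 0 (Kif20a, Ccne1 and Ccne2). The 3 reads that a count of 0 allows would be 0.0679, 0.136 and 0.0824 RPKM there, for counting error only. DKOITD 2 had the fewest reads. The sort marker Itgam was present in all libraries, at 90.3 to 143 RPKM in WT, 78.1 and 97.3 in ITD and 11.0 to 39.0 in DKOITD, where it was called lower than in WT. The floxed genes were read in all groups. Ezh2 measured 9.69, 2.05 and 12.4 RPKM in WT, 12.9 and 18.99 in ITD and 18.1, 1.54, 8.04 and 10.2 in DKOITD (adjusted p = 0.913). Runx1 measured 10.7, 13.02 and 3.53 RPKM in WT, 4.424 and 4.421 in ITD and 16.4, 14.9, 17.6 and 10.4 in DKOITD (adjusted p = 0.269). These values cover whole genes and so cannot show whether the floxed exons were lost. In RNA from bulk cells, fewer dividing cells and less RNA per dividing cell cannot be told apart.

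All 3 roles were expressed in every group. Over the 9 libraries, the median level of a replication gene ran from 4.72 RPKM for the lowest gene to 89.6 for the highest, with 17.4 as the middle gene. Mitotic genes ran from 5.69 to 194 RPKM, with 25.2 in the middle. The mean log2(RPKM + 1) of the 45 genes was highest in WT 3 (5.66), followed by ITD 1 (5.09), DKOITD 1 (4.88), ITD 2 (4.53), DKOITD 3 (4.45), WT 1 (4.42), DKOITD 4 (4.39), WT 2 (4.34) and DKOITD 2 (4.01). Libraries of WT and of DKOITD were therefore spread through the order, while ITD 1 and ITD 2 ranked 2 and 4. WT 3 held the highest value for 29 of the 45 genes, while WT 2 held the lowest for 13 and DKOITD 2 for 12.

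**Figure D1:**
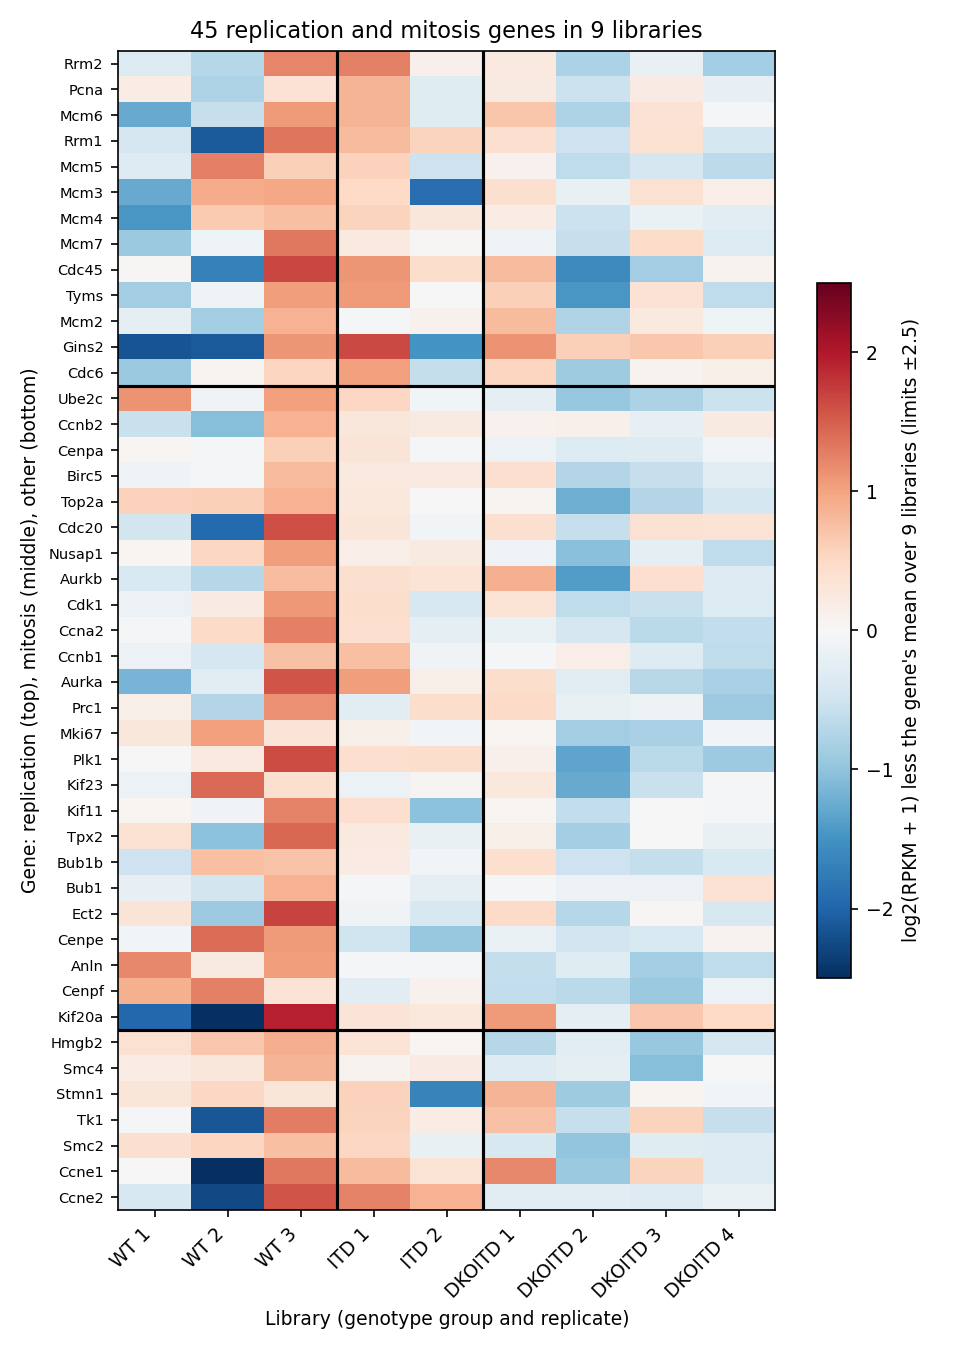
Each row is 1 of the 45 genes and each column 1 of the 9 libraries, and the colour is the log2(RPKM + 1) of the gene in that library less the gene's mean over all 9 libraries. WT 3 is red in nearly all rows, and the mitotic rows are mostly blue across DKOITD 2, DKOITD 3 and DKOITD 4.

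The roles differed in where the WT libraries lay. For the replication genes the mean log2(RPKM + 1) was 3.67, 3.96 and 5.42 in WT, 5.24 and 4.16 in ITD, and 4.90, 3.77, 4.55 and 4.24 in DKOITD. WT 1 was therefore below and WT 3 above all DKOITD libraries, and WT 2 lay above DKOITD 2 and below the other DKOITD libraries. For the mitotic genes it was 4.68, 4.62 and 5.75 in WT, 4.94 and 4.66 in ITD, and 4.86, 4.09, 4.36 and 4.44 in DKOITD. Here 3 of the 4 DKOITD libraries lay below all WT and ITD libraries, and DKOITD 1 lay among them.

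Within a library, the mean of the mitotic genes less that of the replication genes was 1.01, 0.66 and 0.33 in WT, -0.30 and 0.50 in ITD, and -0.04, 0.32, -0.19 and 0.20 in DKOITD. All 4 DKOITD libraries were below all 3 WT libraries, although DKOITD 2 and WT 3 nearly coincided. This difference between the roles has no test here.

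**Figure D2:**
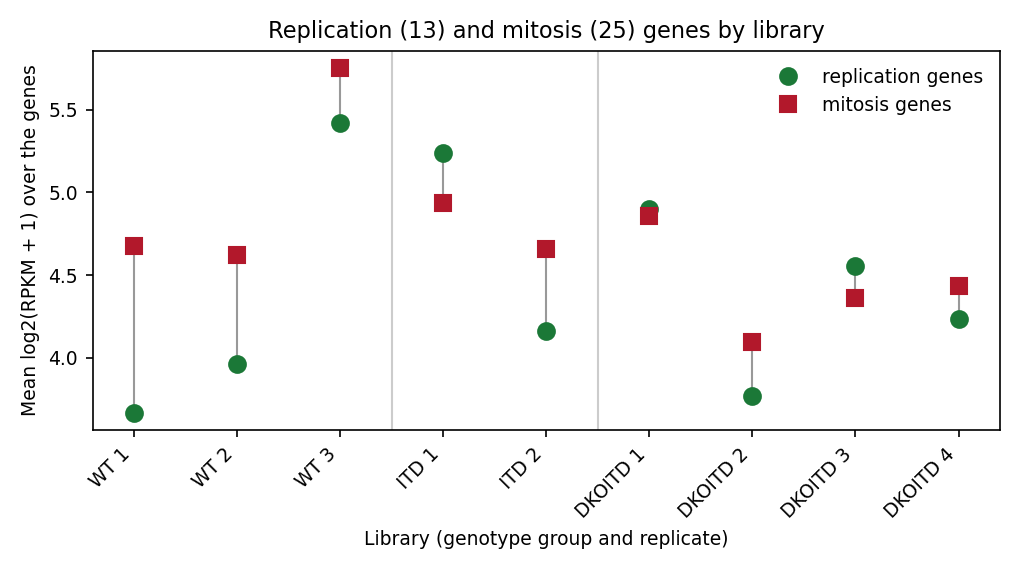
Each library has 1 circle for the mean log2(RPKM + 1) of the 13 replication genes and 1 square for that of the 25 mitotic genes, joined by a line, on an axis that does not start at 0. The line is longest in WT 1 (1.01), and 3 of the 4 DKOITD squares lie below all WT and ITD squares.

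Promoters are shown because genes of the replication and mitosis roles differ in the sequence elements known to time them. E2F sites are typical of genes of the G1/S transition, and CHR elements together with CCAAT boxes of genes of G2 and M phase. RefSeq's promoter table (GRCm38.p6, 250 bases before to 50 after the start) held 36 of the 45 members, and 27025 symbols in all. Both strands were searched, and overlapping matches were each counted. An E2F-type match (TTCGCGC or TTGGCGC) was present in 4 of 11 replication promoters (36.4%), in 4 of 21 mitotic promoters (19.0%) and in 3.98% of all promoters. A CHR-type match (TTTGAA or TTCGAA) was present in 3 of 11 replication promoters (27.3%), in 17 of 21 mitotic promoters (81.0%) and in 19.4% of all. CCAAT was present in 9 of 11 (81.8%), in 18 of 21 (85.7%) and in 37.9% of all. A CHR-type match and CCAAT together were present in 16 of 21 mitotic promoters (76.2%), in 3 of 11 replication promoters and in 7.70% of all. These are exact matches of letters, so sites with other letters are not counted, and no binding was measured. For some members, among them Cdc6 and Mcm7, the start in the promoter table lies inside the gene as GENCODE places it. Their windows may therefore miss the bases before the gene.

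The 250 bases before the start are printed for 4 genes, 5′ to 3′ along the gene, with matches in capitals. Top2a (chr11:99024190-99024439, minus strand) holds 4 CHR-type matches and 6 CCAAT boxes, Ube2c (chr2:164769679-164769928, plus strand) 1 and 6, and Hmgb2 (chr8:57511593-57511842, plus strand) 2 and 4. These are 3 of the 5 members that were lower in DKOITD than in WT. The other two, not printed, held fewer matches: Cenpf 2 CCAAT boxes before the start and 1 CHR-type match after it, and Anln 2 CHR-type matches after the start and no CCAAT box. Mcm6 (chr1:128359706-128359955, minus strand) is the replication gene printed, with 4 E2F-type matches in 2 overlapping pairs and 2 CCAAT boxes. It is not typical of its role: it holds the most E2F-type matches of the 36 promoters, and only 4 of the 11 replication promoters hold any.
Top2a: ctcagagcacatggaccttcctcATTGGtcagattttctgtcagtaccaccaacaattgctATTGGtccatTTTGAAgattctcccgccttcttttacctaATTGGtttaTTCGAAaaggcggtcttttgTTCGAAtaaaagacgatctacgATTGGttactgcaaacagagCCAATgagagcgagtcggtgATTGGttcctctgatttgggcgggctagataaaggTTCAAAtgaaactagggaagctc
Ube2c: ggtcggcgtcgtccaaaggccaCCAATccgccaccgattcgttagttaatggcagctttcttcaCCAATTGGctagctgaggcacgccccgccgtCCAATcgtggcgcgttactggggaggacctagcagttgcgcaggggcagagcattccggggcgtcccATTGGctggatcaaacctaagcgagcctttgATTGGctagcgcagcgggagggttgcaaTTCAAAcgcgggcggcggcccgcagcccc
Hmgb2: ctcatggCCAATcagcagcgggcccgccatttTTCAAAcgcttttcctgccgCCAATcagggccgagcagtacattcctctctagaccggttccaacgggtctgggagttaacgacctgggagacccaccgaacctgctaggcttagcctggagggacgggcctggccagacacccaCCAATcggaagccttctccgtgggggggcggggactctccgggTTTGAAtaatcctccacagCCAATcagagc
Mcm6: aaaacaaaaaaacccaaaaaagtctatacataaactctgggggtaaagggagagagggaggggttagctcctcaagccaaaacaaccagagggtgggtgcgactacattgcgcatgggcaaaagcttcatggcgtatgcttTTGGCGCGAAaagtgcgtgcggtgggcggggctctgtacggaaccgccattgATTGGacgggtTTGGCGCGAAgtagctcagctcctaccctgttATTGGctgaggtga

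The comparison of DKOITD with WT asks what Cre and Flt3 ITD/+ together changed, beside floxed controls. Ube2c, Top2a, Anln and Cenpf of the mitotic genes and Hmgb2 of the other cycling genes were lower in DKOITD, with differences of -1.24 to -1.42 on the log2(RPKM + 1) scale, and no member was called higher (limma, Benjamini-Hochberg adjusted p under 0.05 over all 10868 genes). Of all genes tested, 5.27% were called lower and 7.43% higher. The 4 mitotic genes were 16.0% of their role. None of the 13 replication genes was called. An unadjusted p under 0.05 was seen in none of them, in 9 of the 25 mitotic genes and in 12 of all 45 members. The share of all genes was 30.2%. Differences on this scale understate the change of genes near 0.

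Hmgb2 (chromosome 8, 57511907 to 57515999), a chromatin protein that bends DNA, is abundant in dividing cells. It measured 178, 216 and 256 RPKM in WT, 171 and 141 in ITD and 82.96, 111, 70.2 and 102 in DKOITD. All DKOITD libraries were below all others, and the ITD libraries below all WT libraries. The means were 216.8 ± 38.9 (SD, n = 3), 155.9 ± 21.8 (SD, n = 2) and 91.4 ± 18.3 (SD, n = 4) RPKM. The log2 difference between DKOITD and WT was -1.24 ± 0.27 (SE, adjusted p = 0.0132).

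Ube2c (chromosome 2, 164769898 to 164778822) is the ubiquitin-conjugating enzyme of the anaphase-promoting complex, which marks cyclins for destruction. It had the highest mean log2(RPKM + 1) of the 45 genes, with 452, 194 and 424 RPKM in WT, 296 and 197 in ITD and 178, 108, 119 and 142 in DKOITD. DKOITD and WT did not overlap, although DKOITD 1 came close to WT 2. The log2 difference was -1.31 ± 0.34 (SE, adjusted p = 0.0276).

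Top2a (chromosome 11, 98992943 to 99024189), the topoisomerase that untangles sister chromatids, measured 64.4, 65.3 and 78.96 RPKM in WT, 51.96 and 43.1 in ITD and 45.05, 17.8, 25.4 and 31.4 in DKOITD. The WT libraries were within a narrow range above all others, and DKOITD 1 was among the ITD libraries. The log2 difference between DKOITD and WT was -1.26 ± 0.34 (SE, adjusted p = 0.0315).

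Anln (chromosome 9, 22332012 to 22389188) encodes anillin, a scaffold of the contractile ring. Its levels were 19.4, 9.31 and 17.2 RPKM in WT, 7.59 and 7.71 in ITD and 4.85, 6.21, 3.90 and 4.71 in DKOITD, with no overlap between any of the 3 groups. The log2 difference between DKOITD and WT was -1.42 ± 0.41 (SE, adjusted p = 0.041).

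Cenpf (chromosome 1, 189640606 to 189688086), a large protein of the outer kinetochore, measured 12.7, 16.6 and 8.42 RPKM in WT, 5.17 and 7.01 in ITD and 3.82, 3.66, 2.90 and 5.69 in DKOITD. All WT libraries were above all others, and the ITD and DKOITD ranges overlapped. The log2 difference between DKOITD and WT was -1.42 ± 0.43 (SE, adjusted p = 0.0481), nearest of the 5 to the threshold.

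**Figure D3:**
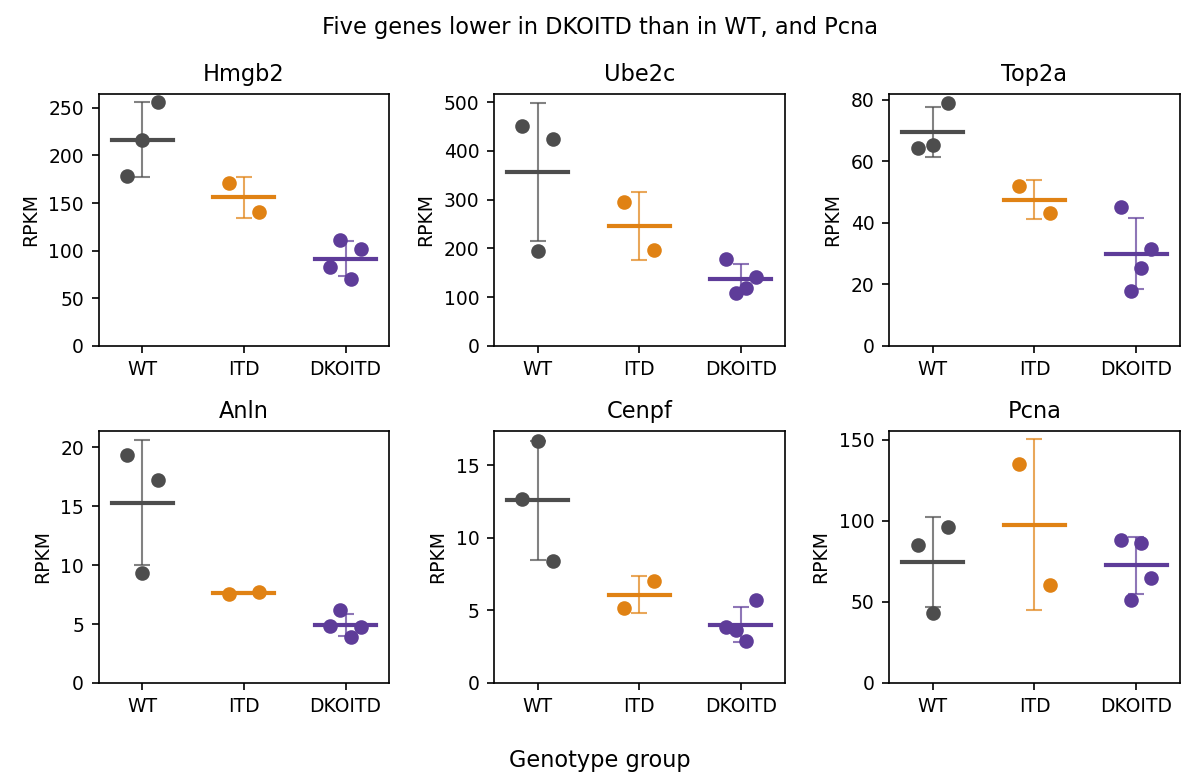
RPKM of Hmgb2, Ube2c, Top2a, Anln, Cenpf and, for comparison, Pcna in each library, by group, on axes from 0, with the group mean as a wide bar and the SD as whiskers. For each of the first 5 genes the 4 DKOITD points lie below the 3 WT points, and for Pcna the groups overlap.

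Among the other mitotic genes the differences were mostly below 0 without passing the test. Of the 25, 22 lay below 0, with a median of -0.55 (range -1.42 to 1.35), against 0.17 for all genes tested, of which 43.4% lay below 0. With libraries scaled by their recovered reads, which moves the median of all genes to 0.74, 10 of the 25 lay below 0 and their median was 0.15. Groups did not overlap, with DKOITD lower, for 8 of the 25 (32.0%) and for 11 of all 45 members, beside 10.9% of all genes. No member had DKOITD above WT without overlap, beside 14.1% of all genes. The 8 were the 4 called genes and Mki67, Cenpa, Ccna2 and Nusap1.

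Mki67, the antigen of the Ki-67 proliferation stain, measured 31.5, 53.7 and 32.4 RPKM in WT and 26.5, 13.5, 14.2 and 24.5 in DKOITD (adjusted p = 0.0954). Ccna2, the cyclin of S and G2 phase, measured 37.5, 53.5 and 92.6 and 34.2, 28.3, 23.8 and 24.7 RPKM (adjusted p = 0.0777), and was named with Mki67 after its values were seen. Nusap1, which bundles spindle microtubules (chromosome 2, 119618298 to 119651244), measured 41.9, 58.6 and 84.5 RPKM in WT, 45.7 and 47.4 in ITD and 37.8, 19.1, 34 and 25.6 in DKOITD (adjusted p = 0.0648). In all 3 genes each DKOITD library was below each WT library.

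Cenpa (chromosome 5, 30666777 to 30674830), the histone H3 variant of centromeres, was the steadiest of the 45 genes, with its highest library 1.92 times its lowest. It measured 122, 115 and 179 RPKM in WT, 149 and 114 in ITD and 108, 93.3, 95.2 and 113 in DKOITD. DKOITD and WT differed by -0.41 ± 0.26 (SE, adjusted p = 0.310) on the log2 scale. The gap between WT 2 and DKOITD 4 was small beside the spread within the groups.

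Other abundant mitotic genes overlapped. Birc5 (chromosome 11, 117849251 to 117855743), the survivin subunit of the chromosomal passenger complex, measured 50.3, 52.1 and 93.4 RPKM in WT, 63.2 and 63.8 in ITD and 71.7, 31.9, 35.5 and 43.9 in DKOITD, with DKOITD 1 inside the WT range (adjusted p = 0.339). Ccnb2 (chromosome 9, 70407692 to 70421547), a mitotic cyclin, measured 88.2, 61.5 and 237 RPKM in WT, 159 and 152 in ITD and 141, 143, 114 and 152 in DKOITD. For Ccnb2 the DKOITD libraries lay above WT 1 and WT 2 and below WT 3 (log2 difference 0.32 ± 0.39 SE, adjusted p = 0.603). Cdc20 (chromosome 4, 118432901 to 118437352), the activator of the anaphase-promoting complex and thus the partner of Ube2c, measured 30.8, 10.4 and 132 RPKM in WT, 52.8 and 40.4 in ITD and 56.2, 28.1, 55.9 and 53.9 in DKOITD, all inside the WT range (log2 difference 0.39 ± 0.64 SE, adjusted p = 0.708). The mitotic genes with a difference above 0 were Ccnb2, Cdc20 and Kif20a, a kinesin of the cleavage furrow. Kif20a measured 0.492, 0 and 21.5 RPKM in WT and 11.2, 3.92, 8.26 and 7.21 in DKOITD, again around the DKOITD libraries.

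The remaining kinases and cyclins of mitosis, given here as examples named after their values were seen, were uneven within WT. Cdk1, the kinase at the centre of mitotic entry, measured 34.9, 44.96 and 82.9 RPKM in WT, 53.1 and 29.1 in ITD and 49.4, 24.7, 26.2 and 30.4 in DKOITD (log2 difference -0.67 ± 0.39 SE, adjusted p = 0.263). Its partner cyclin Ccnb1 measured 29.2, 23.9 and 54.4 RPKM in WT, 54.9 and 30.5 in ITD and 31.03, 36.1, 25.5 and 20.3 in DKOITD (log2 difference -0.27 ± 0.38 SE, adjusted p = 0.649). DKOITD overlapped WT for both. Aurka, the kinase of the spindle poles, measured 12.98, 25.2 and 92.01 RPKM in WT and 41.8, 24.8, 18.5 and 17.02 in DKOITD, where WT 3 was the highest and WT 1 the lowest of these 7 libraries. Aurkb, the kinase of the chromosomal passenger complex and so the partner of Birc5, measured 29.6, 23.4 and 67.2 RPKM in WT and 72.4, 14.1, 52.5 and 30.8 in DKOITD, and DKOITD reached both lower and higher than WT.

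The spindle checkpoint kinases Bub1 and Bub1b had log2 differences of -0.06 and -0.59, and neither passed the test. Bub1 measured 7.20, 5.89 and 16.1 RPKM in WT and 8.24, 7.57, 7.54 and 11.1 in DKOITD, with all DKOITD libraries inside the WT range. Among the spindle and cytokinesis genes, the log2 difference was -0.49 for Tpx2, -0.55 for Kif11, -0.37 for Prc1, -0.53 for Ect2 and -0.96 for Kif23, and the groups overlapped for each. Ect2, which acts at the cleavage furrow, measured 10.6, 3.91 and 28.7 RPKM in WT and 11.7, 4.65, 8.35 and 5.93 in DKOITD. Kif23, a subunit of centralspindlin and thus a partner of Ect2, measured 18.4, 56.8 and 27.7 RPKM in WT and 24.8, 8.07, 13.7 and 20.01 in DKOITD. The highest WT library was WT 3 for Ect2 but WT 2 for Kif23.

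The replication genes lay on both sides of 0. Of the 13, 7 were below 0, the median was -0.02 (range -0.91 to 1.81), and for none did the groups separate. Scaled by recovered reads, 1 of the 13 lay below 0 and the median was 0.69. Pcna (chromosome 2, 132249162 to 132253314) measured 84.9, 43.1 and 95.9 RPKM in WT, 135 and 60.5 in ITD and 87.97, 51.2, 86.1 and 64.7 in DKOITD. The means were 74.6 ± 27.9 (SD, n = 3) RPKM in WT and 72.5 ± 17.7 (SD, n = 4) in DKOITD, and the log2 difference was 0.00 ± 0.38 (SE, adjusted p = 0.996). Rrm2 (chromosome 12, 24708241 to 24714146), the regulated subunit of ribonucleotide reductase, measured 80.1, 61.8 and 239 RPKM in WT, 243 and 110.4 in ITD and 121, 57.97, 89.6 and 56.2 in DKOITD. Its highest values were in WT 3 and ITD 1, and the groups overlapped.

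Rrm1 (chromosome 7, 102441695 to 102469771), the large subunit of that enzyme, measured 21.8, 6.06 and 75.6 RPKM in WT, 51.4 and 43.7 in ITD and 39.9, 20.3, 38.9 and 21.4 in DKOITD. Mcm6 (chromosome 1, 128331590 to 128359664), of the helicase ring, measured 15.3, 25.1 and 80.7 RPKM in WT, 69.6 and 30.9 in ITD and 62.2, 21.9, 49.5 and 36.7 in DKOITD. For both, the WT values ran from below the lowest DKOITD library to above the highest. The ends of the range were Mcm5 (16.7, 52.1 and 32.4 RPKM in WT and 23.1, 13.3, 15.5 and 13.2 in DKOITD; log2 difference -0.91 ± 0.44 SE, adjusted p = 0.187) and the GINS subunit Gins2, both named after their values were seen. Gins2 measured 0.926, 1.02 and 17.5 RPKM in WT, 26.3 and 2.05 in ITD and 17.9, 12.1, 12.8 and 12.02 in DKOITD (log2 difference 1.81 ± 0.85 SE, adjusted p = 0.172). WT 1 and WT 2 were far below all DKOITD libraries, whereas WT 3 lay within their range.

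The other helicase subunits, again named after their values were seen, did not share 1 order of libraries. Mcm2 measured 7.69, 4.67 and 18 RPKM in WT, 9.10 and 10.1 in ITD and 16.9, 5.11, 11.3 and 8.53 in DKOITD. Mcm3 measured 7.70, 38.4 and 39.5 RPKM in WT, 28.4 and 4.52 in ITD and 26.5, 17.2, 26.1 and 22.2 in DKOITD, and Mcm4 measured 6.43, 30.8 and 33.1, 28.9 and 23.8 and 21.97, 13.03, 16.9 and 15.7 RPKM in the same groups. WT 1 was below all DKOITD libraries for Mcm3 and Mcm4, and for Mcm2 it was above DKOITD 2 and below the others. Mcm7 measured 8.74, 16.05 and 44.9 RPKM in WT and 16.1, 11.4, 24.3 and 13.5 in DKOITD, with WT 1 lowest and WT 3 highest of these 7 libraries. The log2 differences were 0.12 for Mcm2, -0.02 for Mcm3, -0.19 for Mcm4 and -0.24 for Mcm7.

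Of the genes that load and start the helicase, Cdc6 measured 1.84, 4.64 and 6.83 RPKM in WT, 9.93 and 2.56 in ITD and 6.86, 1.92, 4.72 and 4.996 in DKOITD, and Cdc45 measured 16.7, 4.33 and 54.2, 36 and 22.4 and 29.1, 4.72, 8.50 and 17.4 RPKM. Tyms, which makes thymidylate, measured 8.28, 14.8 and 33.97 RPKM in WT, 34.8 and 16.1 in ITD and 24.8, 5.24, 20.8 and 9.97 in DKOITD. All 3 overlapped between DKOITD and WT, with log2 differences of 0.08, -0.40 and -0.30.

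The SE of the DKOITD to WT difference was 0.38 to 0.85 for the replication genes (median 0.54) and 0.26 to 0.88 for the mitotic genes (median 0.43). A median replication gene was therefore measured less precisely, and its missed threshold does not show that DKOITD and WT had the same level.

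**Figure D4:**
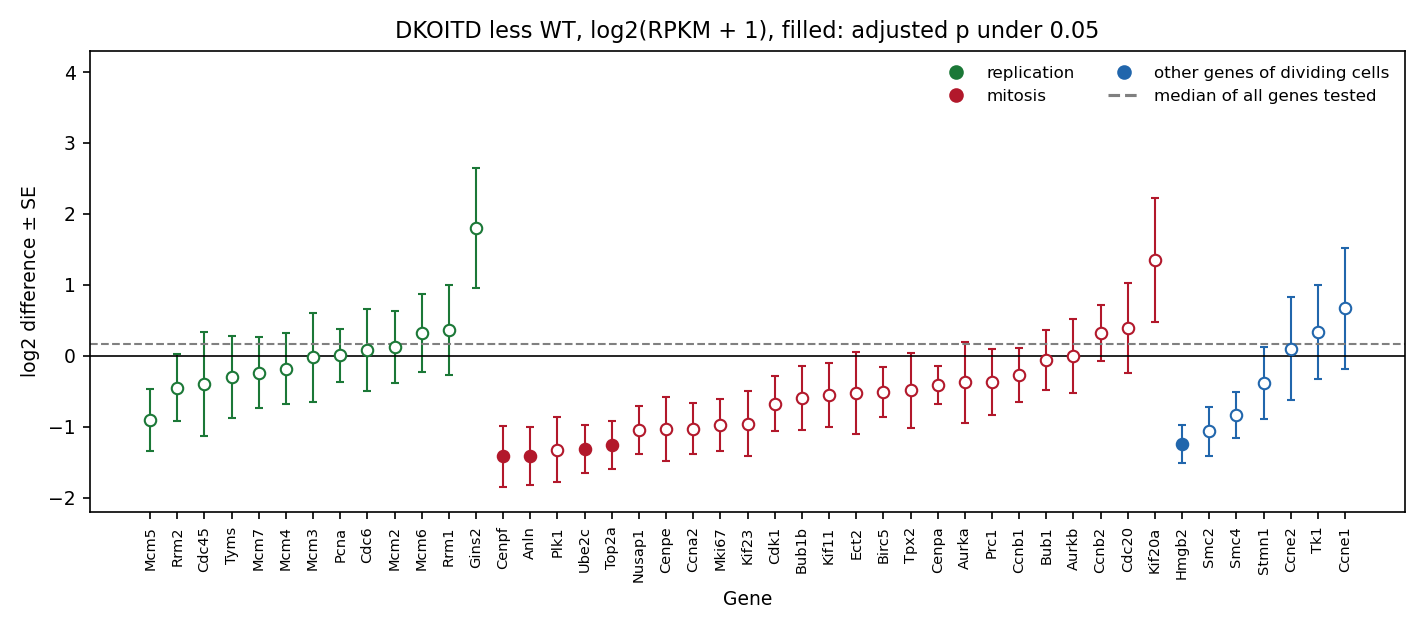
Points are the log2(RPKM + 1) difference of DKOITD less WT for each of the 45 genes, with the SE as bars, grouped by role, and filled where the adjusted p was under 0.05. The dashed line is the median of all genes tested, 0.17, and 22 of 25 mitotic points but 7 of 13 replication points lie below 0.

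The other cycling genes beside Hmgb2 split by kind. Smc4 (chromosome 3, 69004738 to 69034623), of the ATPase core of condensin, measured 68.9, 73.9 and 109 RPKM in WT, 64.3 and 69.4 in ITD and 48.4, 51.6, 28.2 and 60.8 in DKOITD. Smc2, its partner, measured 26.9, 29.9 and 34.8 RPKM in WT, 29.2 and 17.7 in ITD and 15.1, 9.72, 16.2 and 16.01 in DKOITD. All DKOITD libraries were below all WT libraries for both, without passing the test (adjusted p = 0.106 and 0.0597). Stmn1 (chromosome 4, 134468320 to 134473843), which destabilises microtubules, measured 64.5, 74.3 and 64.1 RPKM in WT, 77.4 and 15.5 in ITD and 94.6, 27.6, 54.5 and 49.2 in DKOITD, and DKOITD lay on both sides of WT. The G1/S cyclins Ccne1 and Ccne2 and the thymidine kinase Tk1 had differences of 0.67, 0.10 and 0.33, and none passed the test.

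Which members were called, and the medians, depended on single libraries. With 1 library left out, the difference of Anln ran from -1.22 to -1.72 and that of Cenpf from -1.205 to -1.66. Without WT 3, however, 13 of the 45 members changed sign. Without DKOITD 2 or without DKOITD 3 only Hmgb2 was called, and Hmgb2, Ube2c and Top2a were called without DKOITD 1 or DKOITD 4. Without WT 2 they were Hmgb2, Ube2c and Anln, and without WT 1 Hmgb2, Ccna2 and Nusap1, so that 4 of the 5 genes lost their call there. In these fits 5.10% to 11.2% of all genes tested were called. Without WT 3, 20 of the 45 members lay below 0 and their median was 0.11, against 0.24 for all genes. The mitotic median was then -0.23, with 15 of 25 below 0, and the replication median 0.38, with 1 of 13 below 0. Hmgb2 (-1.12 ± 0.28, adjusted p = 0.0243) and Cenpf (-1.66 ± 0.44, adjusted p = 0.0296) were called lower, and Gins2 (2.88 ± 0.73, adjusted p = 0.0256), Ccnb2 (0.88 ± 0.26, adjusted p = 0.0438) and Kif20a (2.75 ± 0.51, adjusted p = 0.00926) higher. In that fit 18.3% of all genes tested were called in either direction. Scaling each library by its recovered reads moved the median of all genes from 0.17 to 0.74. No member was then called, beside 25.3% of all genes tested, against 12.7% with the deposited scaling. Hmgb2, Ube2c, Top2a, Anln and Cenpf stood at -0.48, -0.55, -0.51, -0.74 and -0.76. Relative to the median of all genes they stood at -1.22 to -1.49, against -1.41 to -1.59 before. Of the 45 differences, 19 changed sign. Under that scaling 21 of 25 mitotic and 8 of 13 replication genes lay below the median of all genes, against 22 and 10 before.

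The labels number the libraries 228, 267 and 274 for DKOITD 1 to DKOITD 3, and 385 to 393 for all others. DKOITD 4, numbered 388 and so within the range of the WT and ITD libraries, was below every WT library in 13 of 25 mitotic genes, in 4 of 7 other cycling genes and in 2 of 13 replication genes, against 2285 of all 10868 genes tested. With the number series as a term, that term takes up DKOITD 1 to DKOITD 3, so the difference from WT rests on DKOITD 4 alone. The 5 called genes then had differences of -0.97 to -1.45 (Hmgb2 -1.07). Calls of that fit are not read here, since a single library stands on the DKOITD side. The part of the number series in the differences was not tested.

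Markers of cell identity moved with the groups. The summed RPKM of 10 genes of neutrophil secondary granules and maturation was 879377 to 1193517 in WT, 682583 and 728758 in ITD, and 35399 to 265916 in DKOITD, and 9 of the 10 were called lower in DKOITD than in WT. That of 10 dendritic and MHC class II genes was 44.3 to 1202 in WT, 4201 and 11351 in ITD, and 9383 to 37964 in DKOITD, with 9 of 10 called higher. Promyelocytes are dividing cells, and the sum of 8 primary granule genes was 863 to 8046 RPKM in WT, 1308 and 4830 in ITD, and 648 to 3001 in DKOITD. WT 3 and ITD 1 ranked first and second both in these genes and in the 45 members, whereas DKOITD 2 was the third in the granule genes and last in the members. Mpo and Ctsg, defining genes of that list, were listed at 0 in WT 2. The list went both ways between DKOITD and WT: 4 of the 8 differences lay below 0, of which Cebpe and Fcnb were called lower, and 4 lay above 0, of which none was called, with the highest at 2.84.

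Erythroid precursors also divide. The summed RPKM of 11 erythroid genes was 17215, 5478 and 33.4 in WT, 7.11 and 2852 in ITD, and 4.99 to 16.7 in DKOITD. In WT 1 and WT 2 nearly all of it came from Beta-s, 17103 and 5372 RPKM, the 1 gene called lower in DKOITD of 5 that could be tested. Hba-a1, Hba-a2, Hbb-b2 and Epor were listed at 0 in all libraries. WT 3, highest in the members, was the lowest WT library in these genes. Of 8 monocyte and macrophage genes tested, 4 (Mrc1, Ccr2, Emr1 and Cd68) were called higher in DKOITD than in WT and 0 lower, with a median of 1.502. Of the B lineage list 2 genes could be tested, and Cd79b was called higher, at 5.16 to 13.98 RPKM in WT and 42.1 to 70.7 in DKOITD, while Pax5 and Igll1 were listed at 0 in all libraries. Of the T and NK lineage list 2 genes could be tested, and Nkg7 was called lower, at 60.1 to 342 RPKM in WT and 6.71 to 50.1 in DKOITD, while Cd3e was listed at 0 in all libraries. The part of these cell types in the differences of the 45 genes was not tested.

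**Figure D5:**
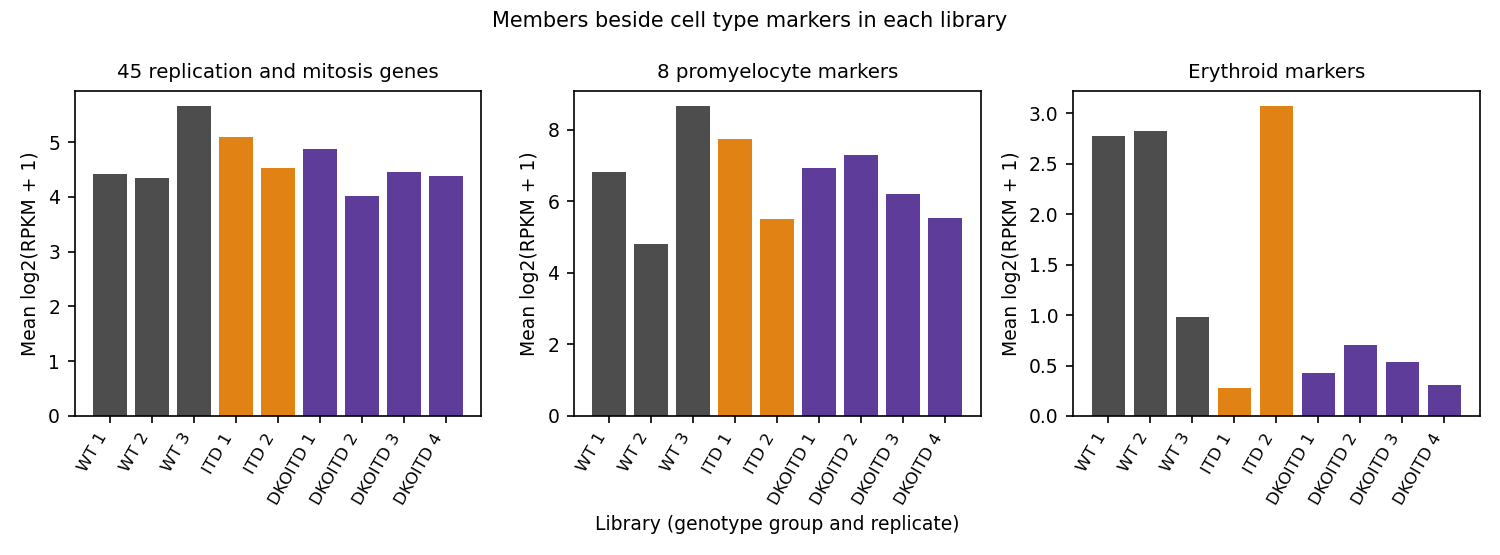
Bars give the mean log2(RPKM + 1) in each library of the 45 members (left), the 8 primary granule genes (middle) and the erythroid genes (right), coloured by group, each panel with its own axis from 0. WT 3 and ITD 1 are highest for both the members and the primary granule genes, DKOITD 2 is the third for those genes and lowest for the members, and WT 3 is low among WT for erythroid genes.

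The comparison of DKOITD with ITD holds Flt3 ITD/+ in common and differs by Cre, with 2 libraries on the ITD side. No member was called, and 2 of 45 (Hmgb2 and Ube2c) had an unadjusted p under 0.05, beside 15.7% of all genes tested. Of all genes tested, 0.212% were called. The members' median was -0.43, against 0.11 for all genes, and 35 of 45 lay below 0, beside 44.2% of all genes tested. By role, 10 of 13 replication genes (median -0.35), 19 of 25 mitotic genes (median -0.36) and 6 of 7 other cycling genes (median -0.54) were below 0. With libraries scaled by their recovered reads, 18 of the 45 differences changed sign. This comparison shares the DKOITD libraries with the one against WT.

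Groups did not overlap, with DKOITD lower, for 11 of 45 members, beside 14.0% of all genes. They were Mcm4 and Rrm1 of replication, Ube2c, Cenpa, Plk1, Nusap1 and Anln of mitosis, and Hmgb2, Smc2, Smc4 and Ccne2. DKOITD was higher without overlap for 1 member, Cenpe, beside 17.3% of all genes. The log2 difference was -0.78 ± 0.30 (SE, adjusted p = 0.236) for Hmgb2 and -0.84 ± 0.38 (SE, adjusted p = 0.315) for Ube2c. Plk1 (chromosome 7, 122159439 to 122169873), the kinase that drives entry into mitosis, measured 22.1, 26.2 and 70.1 RPKM in WT, 29.5 and 30.2 in ITD and 24.01, 8.19, 13.4 and 11.3 in DKOITD. All DKOITD libraries were below both ITD libraries, while DKOITD 1 lay within the WT range (log2 difference from ITD -1.12 ± 0.52 SE, adjusted p = 0.327). For Rrm2, the replication gene of highest mean level, the difference was -1.08 ± 0.54 (SE, adjusted p = 0.365).

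ITD against WT asks what Flt3 ITD/+ changed without Cre. No member was called, 1 of 45 (Cenpe) had an unadjusted p under 0.05, beside 7.93% of all genes tested, and 0.0092% of all genes were called. The members' median was -0.10, against 0.00 for all genes, of which 49.3% lay below 0. Of the replication genes 2 of 13 were below 0 (median 0.44), of the mitotic genes 18 of 25 (median -0.25) and of the other cycling genes 4 of 7 (median -0.30). ITD was lower without overlap for 6 of 45 members (Mki67, Top2a, Cenpf, Cenpe, Anln and Hmgb2), beside 8.99% of all genes, and higher for none, beside 10.1%. All of these but Cenpe were also among the 11 with DKOITD below WT, where the WT libraries are the same.

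Cenpe (chromosome 3, 135212537 to 135273611), the kinetochore motor that moves chromosomes to the spindle equator, measured 7.51, 22.7 and 17.7 RPKM in WT, 5.35 and 3.63 in ITD and 6.96, 5.43, 5.88 and 8.53 in DKOITD. The ITD libraries were below all others, and DKOITD 4 was above the lowest WT library. The log2 difference between ITD and WT was -1.52 ± 0.54 (SE, adjusted p = 0.507) for Cenpe, -0.90 ± 0.51 (SE, adjusted p = 0.691) for Cenpf and -0.85 ± 0.49 (SE, adjusted p = 0.695) for Anln.

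Further genes of the same pathways give the surroundings of these members. Of all genes tested, 7.43% were called higher in DKOITD than in WT and 5.27% lower, with a median of 0.17. Of 44 other replication genes tested, 1 was called higher and 0 lower, with a median of 0.14. That gene was Pold2, a subunit of DNA polymerase delta, at 1.06, 1.70 and 4.66 RPKM in WT, 4.37 and 3.44 in ITD and 20.1, 9.34, 12.6 and 7.501 in DKOITD (log2 difference 2.00 ± 0.50 SE, adjusted p = 0.0259). The DKOITD libraries were above all others. Of 50 other mitotic genes, DKOITD was below WT without overlap for 3 and above it for 1, beside 10.9% and 14.1% of all genes. Their median was -0.18, with 29 of 50 below 0, and 1 was called higher and 0 lower. That gene was Cenpm, a kinetochore subunit, at 0, 0.2 and 8.19 RPKM in WT, 26 and 4.82 in ITD and 41.5, 8.65, 17.3 and 12.3 in DKOITD (log2 difference 2.997 ± 0.82 SE, adjusted p = 0.035), so that DKOITD was above WT and overlapped ITD.

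Of 20 regulators of cell cycle transcription, 1 was called higher and 1 lower in DKOITD than in WT, with a median of -0.23. The shares of all genes were 7.43% and 5.27%. E2f8, an E2F protein that represses, measured 14.5, 13.9 and 22 RPKM in WT, 10.7 and 12.9 in ITD and 4.81, 6.97, 3.98 and 7.10 in DKOITD, and the DKOITD libraries were below all others (log2 difference -1.41 ± 0.39 SE, adjusted p = 0.0354). E2f5, the gene called higher, was listed at 0 in all WT and ITD libraries and at 3.51, 1.09, 1.06 and 5.53 RPKM in DKOITD, which gives no fold. None of the 3 lists had a called gene against ITD or between ITD and WT (limma), with 2 genes at an unadjusted p under 0.05 in each list and each of these comparisons. The medians against ITD were 0.09, -0.23 and -0.51, and those of ITD against WT 0.15, 0.14 and 0.17.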

How the data were processed

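RNA from 100 FACS-sorted Mac1+ cells per library was amplified by Smart-seq2, per the labels' protocols, a method without strand information. STAR 2.4.2a, SAMtools 1.1, HTSeq 0.6.1p1 and build mm10 are named in the submitters' processing notes. The annotation and the counting settings are not stated in the labels. The authors deposited RPKM, so reads of overlapping genes and near-identical copies cannot be told apart. Reads were recovered from the spacing of values: 15564 of 15566 genes came out whole (within 0.0001), and were used for depth and 1 alternative. PCR reads are not independent molecules.

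Genes with at least 1 RPKM in 2 or more libraries (10868) were tested as log2(RPKM + 1) in one limma 3.58.1 fit (R 4.3.3) over all 9 libraries, with Benjamini-Hochberg adjustment over all genes and a threshold of 0.05. The fit was checked on simulated data. Groups came from the genotype labels. Positions are from GENCODE on mm10. The members and lists were chosen with earlier results of these data known. Values of every library are given for members past the threshold, for the 3 with the smallest p in each comparison, and for the most abundant overall and in each of the replication and mitosis roles. Alternatives changed the pseudocount, filter, scaling, weights, blocking and libraries used. The RPKM divisor over the recovered reads was 0.703 to 0.919 in WT and ITD and 1.13 to 1.44 in DKOITD, so the scaling of the deposited values differs between groups.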

Additional observations from a re-analysis of the deposited data

Results flagged for a closer look

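In the 4 DKOITD libraries, each of the 45 genes was examined for a single library far from the other 3, by the gap to the nearest library over the whole range (Dixon's criterion). Chance gives about 1 such gene in 20, and 4 of 45 passed. Cdc20 measured 28.1 RPKM in DKOITD 2 against 53.9 to 56.2 in the others. Kif11, the spindle motor that separates the poles, measured 11.9 RPKM in DKOITD 2 against 18.4 to 19.3. Smc2 measured 9.72 RPKM in DKOITD 2 against 15.1 to 16.2. Gins2 measured 17.9 RPKM in DKOITD 1 against 12.02 to 12.8. DKOITD 2 has the fewest reads, 2825728, and the part of depth in its low values was not tested.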

How the results depend on the processing

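The count of members called lower in DKOITD than in WT was 5 of 45, beside 12.7% of all genes called in either direction. It was 6 with quantile normalization (13.3% of all genes), 5 with a filter on the mean (14.6%) and 4 with a pseudocount of 0.1 (10.4%). It was 3 with library weights (10.7%), with only the 2 groups compared (10.3%) and with WT 2 and DKOITD 2 both left out (7.53%). With no filter on low values it was 2 (4.71%). The count was 0 with values scaled per recovered read (25.3%). The fit with a term for the label number series is left out of these counts, as its DKOITD side rests on DKOITD 4 alone. Leaving out 1 library at a time gave 1 to 5 called members, beside 5.10% to 18.3% of all genes. It gave 1 (Hmgb2) without DKOITD 2 or DKOITD 3, and 3 without DKOITD 1 or DKOITD 4 (Hmgb2, Ube2c, Top2a). It also gave 3 without WT 2 (Hmgb2, Ube2c, Anln) or WT 1 (Hmgb2, Ccna2, Nusap1). Without WT 3 it gave 5, of which 3 were higher, beside 18.3% of all genes. Numbers of libraries did not pair them across groups (correlations of same-numbered deviations -0.04 to 0.07). The fit with a replicate block called 2 members, Ube2c and Hmgb2, beside 8.13% of all genes. Apart from the series fit, Hmgb2 lost its call only with the scaling per read, whereas Ube2c, Top2a, Anln and Cenpf lost theirs under more of the alternatives. Causes were not tested. Against ITD, and between ITD and WT, 0 members were called under every alternative run, beside at most 4.84% and 0.438% of all genes. Of the 45 differences between DKOITD and WT, 19 changed sign when scaled per recovered read, 12 with WT 2 and DKOITD 2 both left out and 13 without WT 3, and 18 of those between DKOITD and ITD changed sign with that scaling. None of the 5 called genes did. With 2 ITD libraries and 171 reads for the median member in DKOITD 2, small differences are not detectable.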

Other observations

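The spread between libraries of a group differed by role. The median SD of log2(RPKM + 1) was 1.13 for replication genes and 0.72 for mitotic genes in WT, beside 0.68 for all genes tested. In DKOITD it was 0.51 and 0.44, beside 0.47 for all genes, and in ITD 0.78 and 0.22, beside 0.36. The ratio of the highest to the lowest of the 9 libraries had a median of 5.28 over the replication genes, 4.43 over the mitotic genes and 3.87 over the other cycling genes, and ran from 1.92 for Cenpa to 28.4 for Gins2 among genes with no library at 0.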
